A study of Mus musculus with 10 samples.

Results

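The mitochondrial ribosomal protein genes were taken as every probe whose gene symbol in the platform annotation starts with Mrpl or Mrps followed by a digit. This gave 72 genes, each with 1 probe, among 15097 features with a symbol and 20243 features in all. By current knowledge of the mammalian mitoribosome, 49 of them encode proteins of the large subunit and 22 proteins of the small subunit. Mrps18a and Mrps30 count in the large subunit, where their products sit. The product of Mrps36 belongs to neither and is an adaptor of the 2-oxoglutarate dehydrogenase complex. RefSeq lists 78 mouse genes with such symbols, of which Mrps2, Mrps26, Mrpl47, Mrps35, Mrpl22 and Mrps27 were not measured here.

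Mitoribosomes translate the few messages encoded by mitochondrial DNA, all of them for subunits of the respiratory chain and the ATP synthase. Their ribosomal RNAs come from mitochondrial DNA, whereas all of their proteins are encoded in the nucleus, made in the cytosol and imported, so that assembly of the particle draws on both genomes. Many of the proteins descend from those of bacterial ribosomes, and others exist only in mitochondria. In blood cell precursors, mitochondrial content and respiration are known to change with growth and with lineage.

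The cells were FDB1, a mouse myeloid progenitor line that depends on IL-3, expressing 1 of 2 activated receptor mutants. FI-Delta is a mutant of the common beta chain of the receptors for GM-CSF, IL-3 and IL-5, and FI-Delta Y577F (here Y577F) carries in addition a phenylalanine in place of a tyrosine. For each line RNA was taken from cells growing in IL-3 (0 h) and from cells washed 3 times and kept for 72 h without factor, which gave 4 groups. The design text states 2 biological replicates for each line. RNA from cells kept for 72 h with IL-3 was not analysed here, so loss of the factor, washing and time in culture cannot be told apart. Total RNA was compared in pairs on 10 two-colour oligonucleotide arrays. Of these, 3 set FI-Delta 72 h against FI-Delta 0 h and 2 set Y577F 72 h against Y577F 0 h. The lines were set against each other at 0 h on 3 arrays and at 72 h on 2. By their titles, FI-Delta time arrays 1 and 2 held the same 2 RNA extracts with the dyes exchanged. Agreement or spread between those 2 arrays is technical and does not compare cultures.

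Values are log2 ratios, turned so that a positive ratio means higher at 72 h on a time array and higher in Y577F cells on a line array. The base of the logarithm and the direction (Cy5 over Cy3) were not stated. If the deposited ratios run the other way, all directions given here are reversed. Arrays of opposite dye assignment correlated positively after turning, with r over all features of 0.63 for the Y577F time arrays, 0.52 for the 72 h arrays and 0.24 and 0.35 for the FI-Delta time arrays. The 0 h arrays of opposite dye had r of 0.087 and -0.037, so their orientation rests on the titles alone. Over the members alone, r was 0.66 for the Y577F time arrays and 0.53 for the 72 h arrays. It was -0.015 for FI-Delta time arrays 1 and 2, 0.28 for arrays 2 and 3, and -0.024 and -0.34 at 0 h. The same-dye pairs, FI-Delta time arrays 1 and 3 and 0 h arrays 2 and 3, had 0.6 and 0.45 over the members. Over all features those 2 pairs had 0.54 and 0.36. Signal intensities were not analysed here, and precision is limited by the number of arrays. The median standard error of a fitted change was 0.101 for 72 h over 0 h in FI-Delta cells and 0.0974 in Y577F cells. A gene was called at an adjusted p under 0.05 from limma, with Benjamini-Hochberg adjustment over all 20243 features, and these p-values treat arrays that share RNA extracts as independent. Log ratios hold no level, so the myeloid identity of the cells could be read only as changes of marker genes.

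After 72 h without factor, 14 of the 72 mitochondrial ribosomal protein genes fell in Y577F cells (19.4%) and 2 rose (2.78%), against a background over all features of 8.75% called lower and 9.28% called higher. The median change was -0.17, beside 0.01 over all features, and 53 of the 72 changes were negative. In bulk RNA, fewer cells of a type and less RNA per cell cannot be told apart. In FI-Delta cells 1 of the 72 fell and 2 rose (1.39% and 2.78%), against 2.97% and 5.19% of all features. There the median change was -0.05, beside -0.01 over all features, and 42 of the 72 were negative. Of all 72 genes, 51 were called in none of the 5 comparisons, 15 in 1, 4 in 2, and Mrpl52 and Mrpl18 in 3.

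The 14 lower genes came from both subunits, 6 of 49 in the large subunit and 8 of 22 in the small subunit. Both genes that rose in Y577F cells, Mrpl52 and Mrpl33, belong to the large subunit. The median change was -0.15 for the large and -0.20 for the small subunit, and a difference between subunits was not tested. Of 42 members counted as having a bacterial counterpart 7 fell, and of 29 counted as specific to mitochondria 7 fell, with medians of -0.145 and -0.20. The second class holds Mrps18a and Mrps18b, although Mrps18b is a relative of the same bacterial protein as Mrps18c, which is in the first. The first also holds Mrps24 and Mrps28, which were moved there after the values had been seen, and Mrps28 is among the genes that fell. Both counts and medians depend on these choices, and a difference between the classes was not tested.

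**Figure D1:**
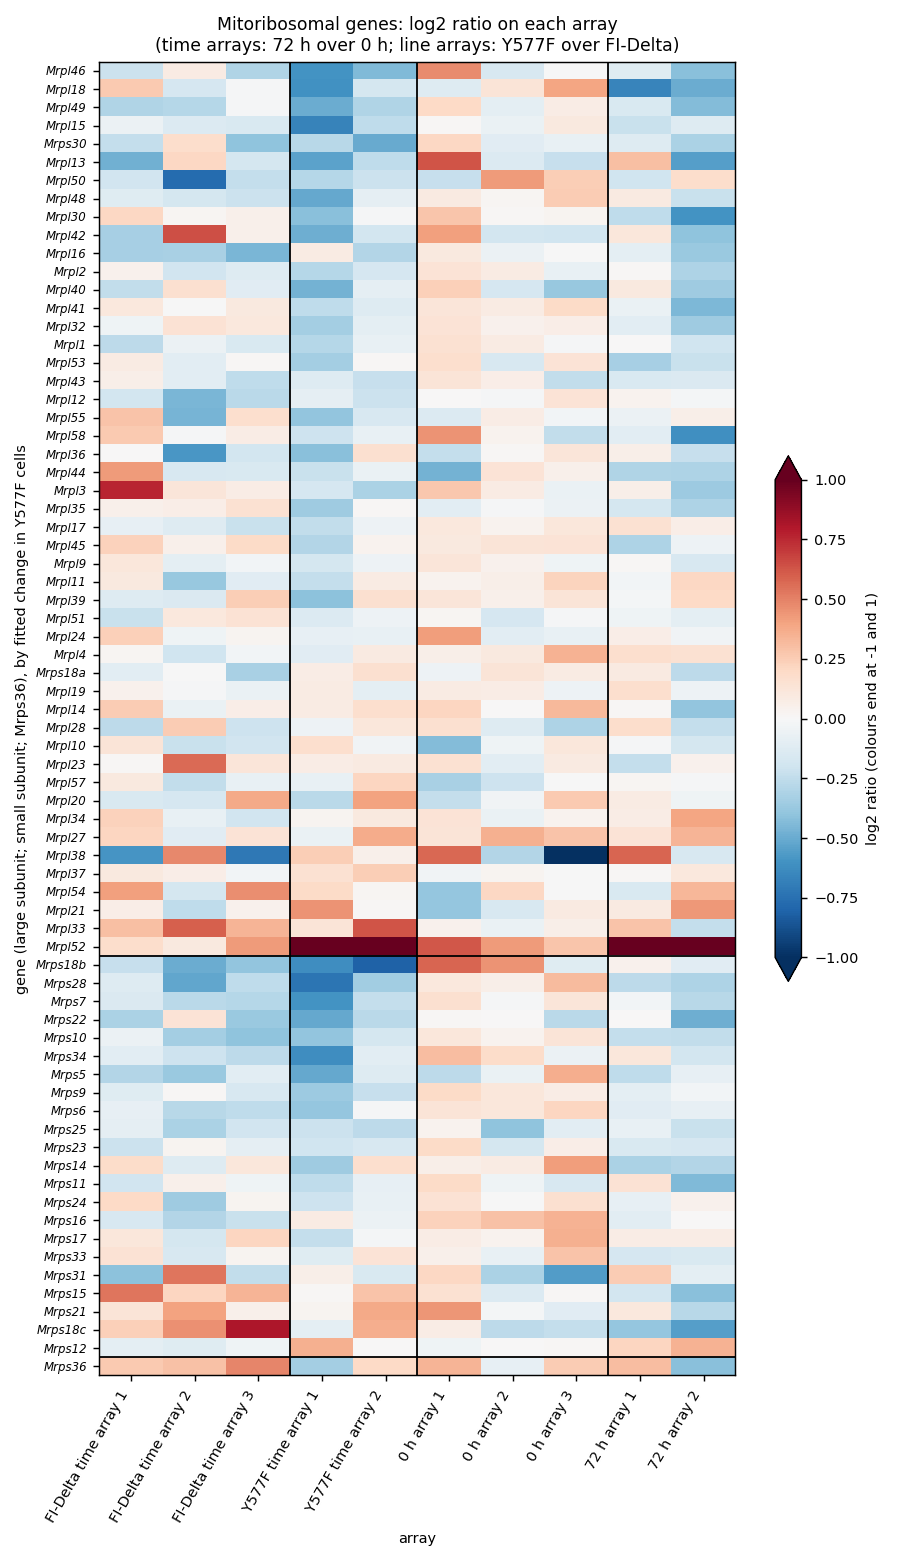
Log2 ratio of each of the 72 genes (rows) on each of the 10 arrays (columns), red where higher at 72 h or in Y577F cells and blue where lower, with colours ending at -1 and 1. Rows are ordered within subunit by the fitted change in Y577F cells. Mrpl52 is red on every array, and the members' blue is deepest on Y577F time array 1 (median -0.24) and 72 h array 2 (median -0.18).

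The members' shift was uneven between arrays. On Y577F time array 1 the median of the 72 ratios was -0.24 with 54 negative, and on Y577F time array 2 it was -0.06 with 44 negative. The 3 FI-Delta time arrays had medians of 0.01, -0.11 and -0.06. Of the 72 members, 39 were negative on both Y577F time arrays and 13 positive on both, beside 29.7% and 31.1% of all features. On all 3 FI-Delta time arrays, of which arrays 1 and 2 share both RNA extracts, 19 were negative and 11 positive. The shares of all features were 17.2% and 18.2%. Without Y577F time array 1 the 14 lower calls became 4 (Mrps18b, Mrps28, Mrpl18 and Mrpl50), or 5.56% of the members beside 4.29% of all features in the same fit. There were also 4 (Mrps18b, Mrps28, Mrps7 and Mrpl15) with the change estimated from the Y577F time arrays alone and the spread from all arrays. That was again 5.56%, beside 4.24% of all features. With each RNA extract as a replicate block and no dye term 5 were called (Mrps18b, Mrps28, Mrps7, Mrpl46 and Mrpl49), or 6.94% beside 3.63%. The median change in Y577F cells was -0.07 without Y577F time array 1 and -0.20 without array 2.

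Promoter sequences from RefSeq (GRCm38.p6) are shown for 6 members: Mrpl52, the gene with the largest rise, Mrps18b, the gene with the largest fall, and 4 others that fell in Y577F cells. Each runs 5′ to 3′ on the strand of the gene and ends at the base before its start, with capitals marking a match to one of 4 short motifs.

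Mrpl52: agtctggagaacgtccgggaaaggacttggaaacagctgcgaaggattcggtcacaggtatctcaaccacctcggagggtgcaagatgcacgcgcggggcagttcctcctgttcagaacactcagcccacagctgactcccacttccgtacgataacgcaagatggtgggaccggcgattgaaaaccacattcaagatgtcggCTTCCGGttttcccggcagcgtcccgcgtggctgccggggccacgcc

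Mrps18b: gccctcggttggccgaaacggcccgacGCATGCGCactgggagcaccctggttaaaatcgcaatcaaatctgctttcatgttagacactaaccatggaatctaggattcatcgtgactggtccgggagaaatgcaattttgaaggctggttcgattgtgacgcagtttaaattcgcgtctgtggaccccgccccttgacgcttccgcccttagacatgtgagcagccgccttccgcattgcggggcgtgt

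Mrps22: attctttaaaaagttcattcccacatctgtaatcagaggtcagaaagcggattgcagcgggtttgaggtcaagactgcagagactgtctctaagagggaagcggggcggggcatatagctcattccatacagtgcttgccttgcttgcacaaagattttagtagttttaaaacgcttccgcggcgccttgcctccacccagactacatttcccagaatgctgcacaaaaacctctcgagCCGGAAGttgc

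Mrpl18: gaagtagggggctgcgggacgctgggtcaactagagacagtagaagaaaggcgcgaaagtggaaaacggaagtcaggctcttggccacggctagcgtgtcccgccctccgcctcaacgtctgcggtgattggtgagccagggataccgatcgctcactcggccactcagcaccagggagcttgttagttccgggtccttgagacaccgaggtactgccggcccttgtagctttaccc

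Mrpl49: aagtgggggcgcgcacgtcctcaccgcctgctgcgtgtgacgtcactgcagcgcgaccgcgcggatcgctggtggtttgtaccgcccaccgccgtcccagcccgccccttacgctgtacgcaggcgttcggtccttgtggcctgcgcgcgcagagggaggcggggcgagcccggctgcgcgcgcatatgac

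Mrpl46: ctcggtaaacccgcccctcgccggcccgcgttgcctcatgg

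These bases lie at chr14:54426659-54426908 (plus strand) for Mrpl52, chr17:35916441-35916690 (minus) for Mrps18b, chr9:98601680-98601929 (minus) for Mrps22, chr17:12916092-12916328 (minus) for Mrpl18, chr19:6057756-6057946 (minus) for Mrpl49 and chr7:78783090-78783130 (minus) for Mrpl46. The last 3 runs stop where a gene on the other strand begins, so they hold all bases between both starts. Upstream of Mrpl18 that gene is Tcp1, which encodes a chaperonin subunit. Upstream of Mrpl49 it is Fau, which encodes a fusion of a ubiquitin-like protein and a cytosolic ribosomal protein. Mrpl46 shares its 41 bases with Mrps11, itself a member.

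The motifs were searched on both strands in windows of 250 bases before to 50 after each start, for 70 windows of 64 members, and Mrpl13, Mrpl15, Mrpl19, Mrpl38, Mrpl4, Mrpl54, Mrps28 and Mrps34 had none. CCGGAAG, the site bound by ETS factors such as GABP, which is known for its place at promoters of mitochondrial genes, was in 32.9% of the members' windows and 8.86% of all 32851 windows. AAGATGGC, bound by YY1, was in 15.7% and 2.75%. GCGCATGC, the core of the site for NRF1, another regulator of nuclear genes for mitochondria, was in 10% and 2.71%, and the E-box CACGTG, bound by Myc and related factors, in 10% and 7.15%. Some members have several windows, and 3 of the 7 windows with an E-box belong to Mrpl2. Counted once per gene, the E-box was in 7.81% of the members with a window and 8.09% of all genes, the ETS motif in 35.9% and 9.93%, the YY1 motif in 17.2% and 3.19%, and the NRF1 core in 10.9% and 3.05%. The members' windows had a median GC content of 58.5% and 21 CpG dinucleotides, beside 52.7% and 7 over all windows. A start on the other strand within 1000 bases upstream was found for 35.9% of the members with a window and 12.2% of all 27025 genes in the table.

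In the Mrpl52 promoter the ETS match is on the other strand 47 bases before the start, and in Mrps22 on the gene's strand 11 bases before it. The capitals in Mrps18b mark the NRF1 core on the other strand. Of the 11 genes that fell in Y577F cells and had a window, 3 held the ETS motif, 2 the YY1 motif, 1 the NRF1 core and 0 the E-box. The ETS matches of Mrpl18 and Mrps18b and the YY1 match of Mrpl49 lie in their windows outside the printed bases.

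Mrpl52, which encodes a large subunit protein with no bacterial counterpart, rose the most and went against the members' median. Its log2 ratio was 1.12 and 1.86 on the 2 Y577F time arrays and 0.17, 0.10 and 0.43 on the 3 FI-Delta time arrays. Between the lines it was 0.62, 0.43 and 0.28 at 0 h and 1.53 and 1.41 at 72 h. All 10 ratios were positive, and both Y577F time arrays lay above all 3 FI-Delta time arrays. The fitted change in Y577F cells was 1.44 ± 0.13 (SE), a 2.71-fold rise (limma adjusted p = 1.86e-05), and in FI-Delta cells 0.31 ± 0.14 (adjusted p = 0.241). At 72 h it was 2.87-fold higher in Y577F than in FI-Delta cells (log2 1.52 ± 0.13, limma adjusted p = 1.49e-05). The lines differed in their change by 1.13 ± 0.15 (limma adjusted p = 0.00087), and these 3 calls were kept under every alternative run and without each single array. Of the genes on either side of it, Slc7a7, an amino acid transporter subunit, rose by 0.38 in Y577F and 0.42 in FI-Delta cells (limma adjusted p = 0.0299 and 0.0421). Mmp14, a membrane metalloproteinase, changed by -0.07 in Y577F cells (limma adjusted p = 0.722) and fell by 0.53 in FI-Delta cells (limma adjusted p = 0.00637). At 72 h Mmp14, like Mrpl52, was higher in Y577F than in FI-Delta cells (0.67 ± 0.10, limma adjusted p = 0.000681). Slc7a7 differed there by -0.07 (limma adjusted p = 0.73).

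Mrpl33, a counterpart of a bacterial large subunit protein, rose in Y577F cells. Its ratios were 0.13 and 0.63 on the Y577F time arrays and 0.30, 0.60 and 0.34 on the FI-Delta time arrays. All 5 were positive and the lines overlapped. The fitted change was 0.39 ± 0.12 in Y577F cells (limma adjusted p = 0.0425) and 0.40 ± 0.12 in FI-Delta cells (adjusted p = 0.0775). The call in Y577F cells was kept without 3 of the 10 arrays (72 h array 2, FI-Delta time array 1 or Y577F time array 1) and lost without any other.

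Small subunit genes showed the largest falls in Y577F cells. Mrps18b, which encodes one of the mammalian relatives of a bacterial small subunit protein, had ratios of -0.62 and -0.81 on the Y577F time arrays. On the FI-Delta time arrays it had -0.23, -0.50 and -0.39. Every time array was negative, and both Y577F arrays lay below the FI-Delta arrays. The fitted change was -0.71 ± 0.11 in Y577F cells (limma adjusted p = 0.000719) and -0.32 ± 0.11 in FI-Delta cells (adjusted p = 0.121). The lines differed in their change by -0.39 ± 0.12, which missed the threshold (limma adjusted p = 0.0758). At 0 h it was 0.58, 0.45 and -0.12 on the line arrays.

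Mrps28, another small subunit gene, had ratios of -0.73 and -0.35 on the Y577F time arrays and -0.13, -0.52 and -0.26 on the FI-Delta time arrays. All 5 were negative, and the lines overlapped. The fitted change was -0.59 ± 0.09 in Y577F cells (limma adjusted p = 0.00091) and -0.27 ± 0.10 in FI-Delta cells (adjusted p = 0.136). The difference between the lines was -0.33 ± 0.11 (limma adjusted p = 0.0855). The falls of Mrps18b and Mrps28 in Y577F cells were called under every alternative run and without each single array.

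Mrps7, a counterpart of a bacterial small subunit protein, had -0.60 and -0.24 on the Y577F time arrays, and a fitted change of -0.44 ± 0.10 (limma adjusted p = 0.0073). The other small subunit genes that fell were Mrps22 (-0.39), Mrps10 (-0.38), Mrps34 (-0.37), Mrps5 (-0.35) and Mrps9 (-0.30). All 5 were negative on both Y577F time arrays, with array 1 the lower of both, and all 5 lost their call without that array. Mrps34 kept its call without 3 of the 10 arrays only, Mrps9 and Mrps22 without 7 and Mrps5 without 8. Mrps6 lay just outside the threshold at -0.28 (limma adjusted p = 0.0605).

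In the large subunit Mrpl46, which is specific to mitochondria, had ratios of -0.60 and -0.44 on the Y577F time arrays and -0.21, 0.08 and -0.30 on the FI-Delta time arrays. Both Y577F arrays lay below all FI-Delta arrays. The fitted change was -0.52 ± 0.10 in Y577F cells (limma adjusted p = 0.00381) and -0.11 ± 0.11 in FI-Delta cells (adjusted p = 0.662). Its neighbour across the shared promoter, Mrps11, changed by -0.17 ± 0.10 in Y577F cells (limma adjusted p = 0.317).

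Mrpl18, a counterpart of a bacterial protein that binds the small ribosomal RNA of the large subunit, had -0.61 and -0.17 on the Y577F time arrays. On the FI-Delta time arrays it had 0.26, -0.17 and -0.01, and the line arrays at 72 h gave -0.66 and -0.50. Y577F time array 2 and FI-Delta time array 2 were nearly equal, while both 72 h arrays were clearly negative. The fitted change was -0.48 ± 0.10 in Y577F cells (limma adjusted p = 0.00524) and 0.03 ± 0.10 in FI-Delta cells (adjusted p = 0.915). The call in Y577F cells was kept without each single array. It was lost with the change estimated from the Y577F time arrays alone (limma adjusted p = 0.131) and with the replicate block (limma adjusted p = 0.103). Tcp1, which begins at the other end of its promoter, changed by -0.19 in Y577F cells and fell by 0.32 in FI-Delta cells (limma adjusted p = 0.046).

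Of the other large subunit genes that fell in Y577F cells, Mrpl49 and Mrpl15 both changed by -0.43, Mrps30 by -0.40 and Mrpl50 by -0.33. Mrpl15 had -0.67 and -0.26 on the Y577F time arrays, and Mrps30 -0.28 and -0.50. Fau, across the shared promoter from Mrpl49, changed by 0.25 ± 0.09 (limma adjusted p = 0.0977). Mrpl48 lay just outside the threshold at -0.32 (limma adjusted p = 0.0537). Around the 16 members called in Y577F cells, 24 of 32 flanking genes were measured, among them Mrps11, itself a member. Of these 24, 3 were called higher (Slc7a7, Tpd52 and Eme2) and 0 lower, beside 9.28% and 8.75% of all features.

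**Figure D2:**
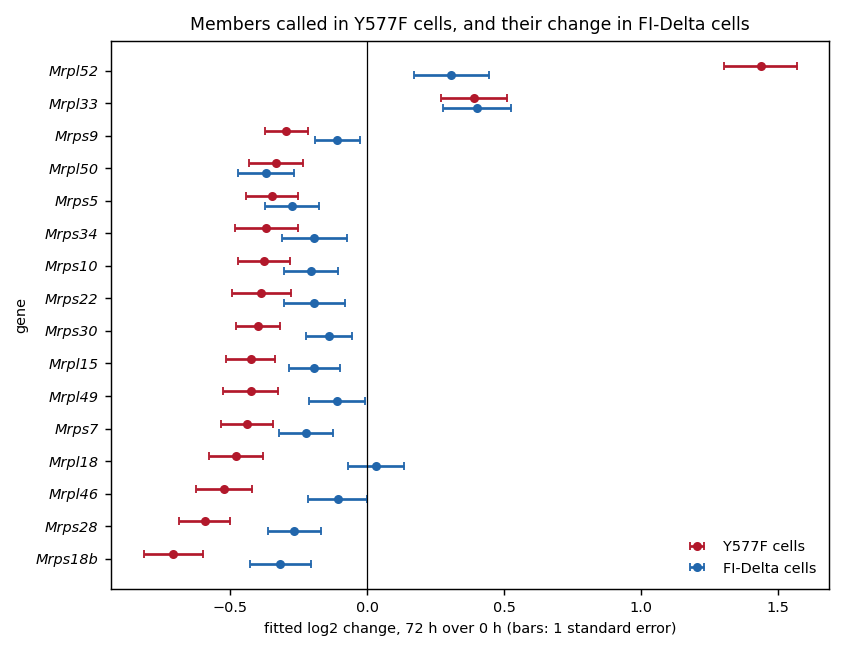
Fitted log2 change at 72 h over 0 h (horizontal axis) of the 16 members called in Y577F cells, in Y577F cells (red) and FI-Delta cells (blue), with bars of 1 standard error. Mrpl52 lies at 1.44 in Y577F and 0.31 in FI-Delta cells, Mrpl33 and Mrpl50 are nearly equal in both lines, and Mrps18b lies lowest at -0.71.

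In FI-Delta cells, Mrps18c and Mrps15 rose and Mrpl50 fell. Mrps18c, the other small subunit relative of the same bacterial protein as Mrps18b, had 0.24, 0.45 and 0.81 on the FI-Delta time arrays and -0.09 and 0.37 on the Y577F time arrays. The FI-Delta ratios were all positive, and the ranges of the lines overlapped. The fitted change was 0.54 ± 0.13 in FI-Delta cells (limma adjusted p = 0.0231) and 0.17 ± 0.12 in Y577F cells (adjusted p = 0.425). The difference of -0.37 ± 0.14 between the lines missed the threshold (limma adjusted p = 0.136).

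Mrps15, a counterpart of a bacterial protein of the small subunit, had 0.54, 0.21 and 0.34 on the FI-Delta time arrays, and its fitted change was 0.40 ± 0.10 (limma adjusted p = 0.0247). Mrpl50, specific to mitochondria, had -0.19, -0.77 and -0.24 there, and a fitted change of -0.37 ± 0.10 (limma adjusted p = 0.0484). Array 2 lay far below the others, including array 1 with the same RNA extracts. Mrpl50 fell in both lines. It was the only member called in the same direction in both lines, at -0.33 ± 0.10 in Y577F cells (limma adjusted p = 0.037). Without 0 h array 1, 72 h array 2 or FI-Delta time array 3, the 2 higher calls in FI-Delta cells became 0. The lower call was lost without each array other than FI-Delta time array 1, 0 h array 2 and Y577F time array 1.

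At 0 h, while both lines grew in IL-3, 0 of the 72 members were called by limma in either direction, against 0.934% of all features higher and 0.484% lower in Y577F cells. At an unadjusted limma p under 0.05, 5 of the 72 members differed, beside 2453 of all 20243 features. The median difference was 0.05, beside -0.01 over all features, and 50 of 72 were positive. The 3 largest differences were those of Mrpl52 (0.39 ± 0.12, limma adjusted p = 0.181), Mrps18b (0.35 ± 0.10, adjusted p = 0.14) and Mrps36 (0.23 ± 0.13, adjusted p = 0.537). The medians of the 3 arrays were 0.12, 0.00 and 0.06, and 1 member was called higher without 0 h array 3 or without Y577F time array 2.

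At 72 h, 2 members were higher in Y577F than in FI-Delta cells and 3 lower, or 2.78% and 4.17% of the members, beside 6.44% and 6.45% of all features. With arrays weighted by their quality, 12 members were lower (16.7%), beside 13.9% of all features. The median difference was -0.09, beside 0.01 over all features, and 52 of 72 were negative. Over the small subunit 19 of 22 differences were negative, with a median of -0.11. On 72 h array 1 the members' median was -0.01 and on array 2 it was -0.18.

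Besides Mrpl52, Mrpl27 was higher, at 0.13 and 0.34 on the 2 arrays and 0.27 ± 0.08 in the fit (limma adjusted p = 0.0487). It encodes a counterpart of a bacterial protein near the peptidyl transferase centre. Lower were Mrps18c at -0.38 and -0.55 (fit -0.50 ± 0.12, limma adjusted p = 0.0198), Mrpl18 (fit -0.49 ± 0.10, limma adjusted p = 0.00625) and Mrpl30. Mrpl30, another gene with a bacterial counterpart, had -0.25 and -0.60 (fit -0.37 ± 0.11, limma adjusted p = 0.0477). The 3 lower calls became 0 without either 72 h array and with the replicate block. Without Y577F time array 2 they became 6, and the call of Mrpl27 was lost whichever single array was left out.

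The change over 72 h differed between the lines for 5 members, with 1 of 72 higher and 4 lower in Y577F cells, against 4.33% and 4.91% of all features. The median difference was -0.125, beside 0.01 over all features. Mrpl52 was the higher one. Mrpl18 differed by -0.51 ± 0.11 (limma adjusted p = 0.0162), with a fall in Y577F cells beside 0.03 in FI-Delta cells. Mrpl3, whose product is a counterpart of a bacterial large subunit protein, differed by -0.42 ± 0.11 (limma adjusted p = 0.028). It had -0.17 and -0.32 on the Y577F time arrays and 0.76, 0.12 and 0.08 on the FI-Delta time arrays, so that all 5 split by line. FI-Delta time array 1 stood far above the others, including array 2 with the same RNA extracts. Mrpl30 differed by -0.44 ± 0.12 (limma adjusted p = 0.0474) and Mrpl46 by -0.41 ± 0.12 (limma adjusted p = 0.0487). The 4 lower calls became 0 without 0 h array 1, without 72 h array 2 and with the replicate block, and 7 without Y577F time array 2. For the 12 other genes that fell in Y577F cells, a difference between the lines was not called.

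**Figure D3:**
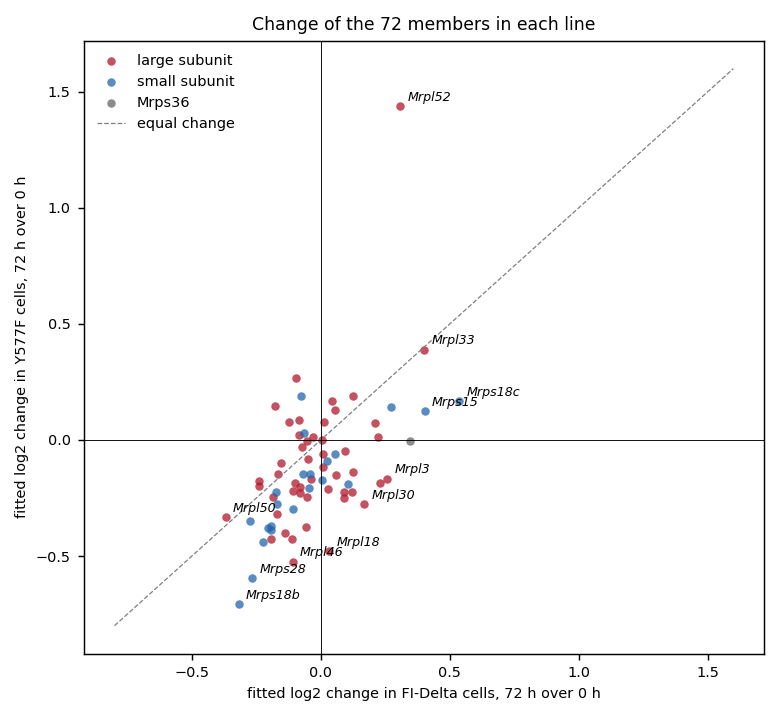
Fitted log2 change over 72 h of the 72 members in FI-Delta cells (horizontal axis) and Y577F cells (vertical axis), coloured by subunit, with a dashed line of equal change and labels on 11 of the genes named in the text. Most points lie below the dashed line (52 of 72), and Mrpl52 lies far above it. Both axes use the same arrays in 1 fit, so no correlation is drawn from the plot.

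Other parts of the mitochondrial translation machinery were read from gene lists. For these lists and the markers below, the background in Y577F cells was 8.75% of all features called lower and 9.28% higher. In FI-Delta cells it was 2.97% and 5.19%, and between the lines at 72 h 6.45% and 6.44%. An unadjusted limma p under 0.05 was reached by 3999 of all 20243 features in FI-Delta cells and 5869 in Y577F cells. Between the lines at 0 h 2453 reached it. A list of 7 mitoribosomal proteins with other symbols held Ict1 and Mrp63, older names of the members Mrpl58 and Mrpl57, which were counted as members. Of the rest of that list, 3 were measured. Chchd1 and Ptcd3, both in the small subunit, fell in Y577F cells by 0.48 each (limma adjusted p = 0.0174 and 0.0184), and Dap3 changed by 0.02. At 72 h Ptcd3 (-0.52) and Dap3 (-0.30) were lower in Y577F than in FI-Delta cells.

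Of 39 translation and ribosome assembly factors 30 were measured, and in Y577F cells 6 fell and 1 rose, with a median of -0.17. C1qbp, a matrix protein needed for mitochondrial translation, fell by 0.95 ± 0.08 in Y577F cells (limma adjusted p = 7.16e-06) and by 0.57 ± 0.08 in FI-Delta cells (limma adjusted p = 0.00111). Tsfm, an elongation factor, fell by 0.66 in Y577F cells (limma adjusted p = 0.00027), and so did Ngrn (-0.41), a factor for the large ribosomal RNA, and Rbfa (-0.35), which matures the small subunit. The gene that rose was Mrm2, a methyltransferase of the large ribosomal RNA (0.32). In FI-Delta cells C1qbp was the 1 gene called. Between the lines 0 were called at 0 h by limma (5 at an unadjusted p under 0.05), and at 72 h Rbfa was lower in Y577F cells (-0.53).

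A further list of 20 genes joined those for transcription and upkeep of mitochondrial DNA with nuclear regulators such as Gabpa, Nrf1 and Myc. Of these, 17 were measured. In Y577F cells the 4 genes called all fell, and the median of the list was -0.13. They were Gabpb1 (-0.75 ± 0.09, limma adjusted p = 9.58e-05), a subunit of the ETS factor GABP, Myc (-0.53), Pprc1 (-0.50), a coactivator of genes for mitochondria, and Mgme1 (-0.45), a mitochondrial exonuclease. Of these 4, only Mgme1 acts on mitochondrial DNA itself, and the others are nuclear regulators. Gabpa, the DNA-binding subunit of GABP, changed by -0.13 and Nrf1 by -0.16, neither of them called. In FI-Delta cells 0 of the 17 were called by limma and 3 had an unadjusted p under 0.05. The change of Gabpb1 differed between the lines by -0.66 ± 0.10 (limma adjusted p = 0.00169).

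Cytosolic ribosomal protein genes and respiratory chain genes had medians near 0 in Y577F cells. Of 65 cytosolic ribosomal protein genes 3 rose and 2 fell, with a median of -0.03. Of 71 measured respiratory chain and ATP synthase genes, whose mitochondrial partners the mitoribosome makes, 4 rose and 3 fell, with a median of 0.00. In FI-Delta cells the respiratory chain median was 0.08 with 1 gene higher, and that of the cytosolic ribosome -0.03 with 0 called by limma (4 at an unadjusted p under 0.05). A difference between these lists and the mitochondrial ribosomal protein genes was not tested.

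**Figure D4:**
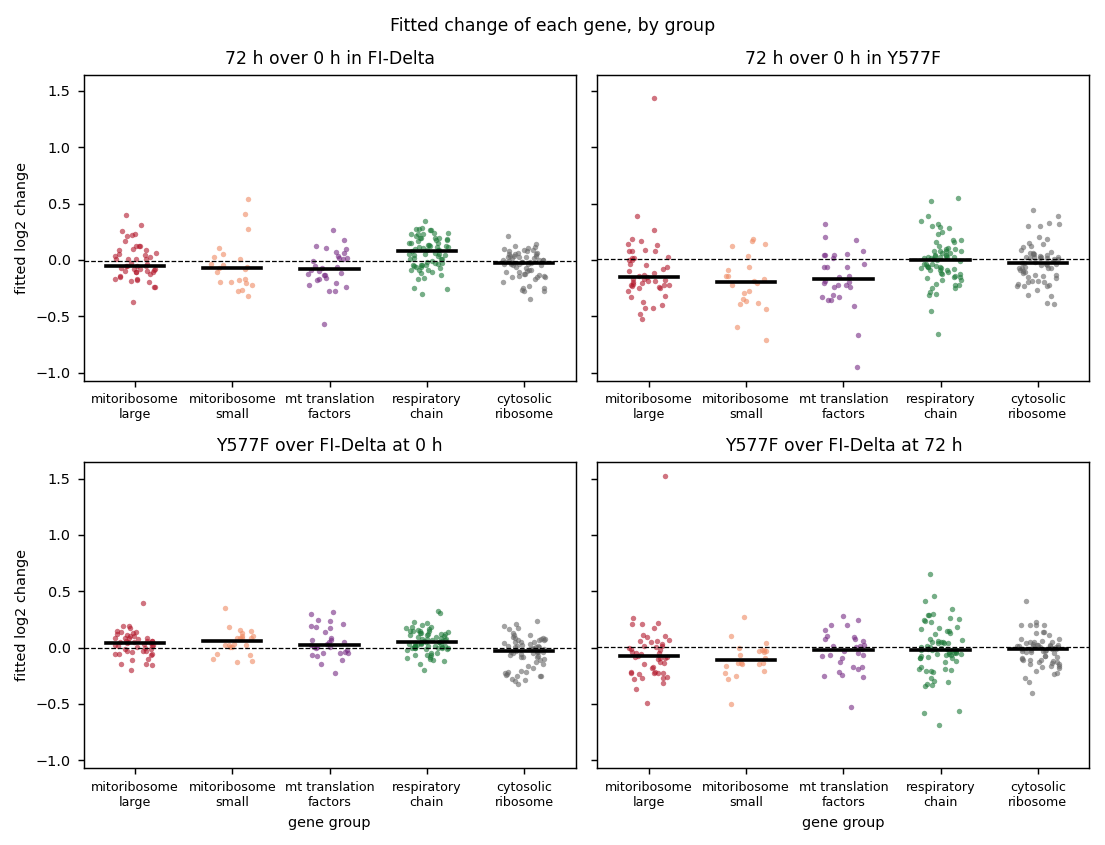
Fitted log2 change of each gene (points) in 5 gene groups for 72 h over 0 h in each line (top) and for Y577F over FI-Delta at each time (bottom), with a black bar at the median of the group and a dashed line at the median of all features. In Y577F cells the medians of the large subunit, small subunit and translation factors lie at -0.15, -0.20 and -0.17, and those of the respiratory chain and cytosolic ribosome at 0.00 and -0.03.

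Markers of cell type and of proliferation moved with the same comparisons. Of 5 measured proliferation genes, 4 fell in Y577F cells (median -0.44) and 1 in FI-Delta cells (median -0.04), and 4 were lower in Y577F cells at 72 h (median -0.80). Of 7 measured monocyte and macrophage markers, 6 rose in Y577F cells (median 2.28) and 6 in FI-Delta cells (median 0.91). Of 9 neutrophil granule genes, 7 rose in FI-Delta cells (median 1.29), while in Y577F cells 1 rose and 4 fell (median -0.41), and all 9 were lower in Y577F cells at 72 h (median -2.86). Of 6 mast cell and basophil markers, 4 fell in FI-Delta cells, and in Y577F cells 3 fell and 1 rose. Of 5 measured erythroid and megakaryocyte markers 2 fell in each line and 1 rose in Y577F cells, and of 5 lymphoid markers 0 were called by limma in either line, with 0 at an unadjusted p under 0.05. The part of these changes in the members' values was not tested.

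Correlated with the median of the other members over the 10 arrays, 59 of the 72 genes had a positive r, 35 of them above 0.5, and 13 a negative r. Mrps7 was highest (r = 0.92), followed by Mrpl2 (0.87) and Mrps28 (0.86). Mrpl21 (-0.73), Mrps12 (-0.64), Mrpl37 (-0.57), Mrpl54 (-0.455) and Mrpl52 (-0.37) were the lowest. Outside the members, the genes most like their median were Dync1li1 (0.965), Stoml2 (0.96), Snrnp200 (0.95), Rtca (0.95) and Rps18 (0.94), and the most opposite was Mef2a (-0.95). How many of all features reach such values was not counted, so the counts do not show that the members are more alike than other genes. The arrays share RNA extracts, and these values are a description over 10 arrays.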

How the data were processed

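The values deposited by the authors are log2 ratios of both channels of each array. The submitters' processing notes name limma, with no version or role, and for background correction and normalization the method is not given in the sources used here. The base was read as 2 because limma writes log2 ratios, and the direction as Cy5 over Cy3 for the same reason.

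Of 23040 spots, 1243 control spots were left out. Probes of 1 gene were averaged, which gave 20243 features. Ratios were turned by the dyes in the labels. FI-Delta time arrays 1 and 2, a dye swap of the same RNA pair, were averaged, leaving 9 hybridisations. One model with a dye term was fitted to all features (limma 3.58.1, R 4.3.3, 5 residual degrees of freedom), with two-sided tests and Benjamini-Hochberg adjustment over all features. The fit was run on simulated data with independent noise on each array, capped at the median spread of the features and then reduced. The arrays here share RNA extracts, so that run does not measure how reliable the calls are. Alternatives were no dye term, direct arrays alone, a replicate block, array weights, scaling, the dye swap kept as 2, single probes, and each array left out. Direct arrays alone took each change from the arrays of its own comparison, with the spread pooled over all arrays. That run and the replicate block also had no dye term. On the 3 arrays between the lines with Y577F RNA in Cy5 (72 h array 2, 0 h arrays 2 and 3) the replicate numbers of the lines appear exchanged, so the block took cultures 1 and 2 to be FI-Delta and cultures 3 and 4 to be Y577F.

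The members, lists and tests were chosen with earlier results of these data known. Named members are those called, up to 10 in each direction, or the 3 with the largest change where fewer than 3 were called. Mrps24 and Mrps28 were moved to the genes with a bacterial counterpart after the values had been seen.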

Additional observations from a re-analysis of the deposited data

Results flagged for a closer look

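For 5 members the change over 72 h differed between the lines in the test of that difference (limma, Benjamini-Hochberg adjustment, Y577F minus FI-Delta). That was 1.39% of the members higher and 5.56% lower, beside 4.33% and 4.91% of all features, so the members did not stand out by their number of calls. Mrpl52 changed by 1.13 more in Y577F cells (adjusted p = 0.00087), which held without each single array (adjusted p up to 0.0101 over all alternatives). Mrpl18 differed by -0.512 (adjusted p = 0.0162, and 0.00644 to 0.161 over the alternatives), and its call was lost without 0 h array 1 or 72 h array 2. Mrpl3 differed by -0.425 (adjusted p = 0.028, and 0.0115 to 0.365), kept without 2 of the 10 arrays. Mrpl30 differed by -0.444 (adjusted p = 0.0474, and 0.00616 to 0.274), kept without 2 arrays. Mrpl46 differed by -0.415 (adjusted p = 0.0487, and 0.0211 to 0.228), kept without 3 arrays.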

How the results depend on the processing

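No call of a member reversed under any alternative that gave it a value (direct arrays alone gave none for the 5 calls on the difference between the lines). The members' medians moved by less than the standard deviation of the array medians of that side. That spread comes from only 2 or 3 arrays a side and was wide in Y577F cells (medians -0.24 and -0.06). It therefore does not show that the medians are stable, and the Y577F median shrank without Y577F time array 1. The counts of calls were less stable, and the share of all features called moved too (in parentheses). In FI-Delta cells the 2 higher calls became 0 from direct arrays alone (2.44%), 1 with the replicate block (1.85%) and 6 with array weights (10.4%), and 0 to 4 without single arrays. The 1 lower call became 0 with no dye term, direct arrays alone, the replicate block or scaled arrays, 8 with array weights (8.29%) and 4 with the dye swap as 2 hybridisations, and 0 to 2 without single arrays. In Y577F cells the 2 higher calls became 1 from direct arrays alone, with the replicate block or with scaled arrays, and 1 to 3 without single arrays. The 14 lower calls became 4 from direct arrays alone (4.24%) and 5 with the replicate block (3.63%), and 4 to 16 without single arrays (4.29% without Y577F time array 1, where 4 were called, and 6.45% without array 2, where 16 were). Between the lines at 0 h, 0 to 1 member was higher without single arrays. At 72 h the 2 higher calls became 1 with no dye term, direct arrays alone, the replicate block, scaled arrays or single probes, 4 with array weights, and 1 to 2 without single arrays. The 3 lower calls became 1 from direct arrays alone (3.27%), 0 with the replicate block (2.39%) and 12 with array weights (13.9%), and 0 to 6 without single arrays. For the difference between the lines, the 1 higher call became 1 to 2 without single arrays, and the 4 lower calls became 1 with no dye term (4.2%), 0 with the replicate block (0.993%), 2 with scaled arrays (3.94%) and 0 to 7 without single arrays. The replicate block kept 9 of the 29 calls. That fit also had no dye term and left 2 residual degrees of freedom, beside 5 in the fit reported. Leaving out the dye term alone kept 20 of the 29 calls. The cause of the shifts was not tested. Spot intensities were not analysed here, so no limit from signal over background can be given.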

Other observations

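Mrpl38, chosen after its values were seen, had the widest spread of the members among the FI-Delta time arrays and among the 0 h arrays. On FI-Delta time arrays 1, 2 and 3 its log2 ratio was -0.59, 0.48 and -0.72, and on 0 h arrays 1, 2 and 3 it was 0.58, -0.30 and -1.01. In both cases the positive array carried its dyes the other way round from the negative ones. The fitted dye term of Mrpl38 was -0.41 (limma adjusted p = 0.074), the smallest adjusted p for that term among the members. The dye term was called for 0 of the 72 members by limma and for 0.721% of all features. Its fitted change was -0.18 ± 0.16 in FI-Delta cells and 0.15 ± 0.16 in Y577F cells, neither of them called.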
